A study of Mus musculus with 12 samples.

Results

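Transcripts of 10 genes of the NF-kB pathway were followed in mouse embryonic fibroblasts (MEFs). The subunit genes were Nfkb1, Nfkb2, Rela and Relb, and the genes of the inhibitor of kB (IkB) family were Nfkbia, Nfkbie and Bcl3. Tnfaip3 and Birc3 were feedback genes, and Tnfaip2 was a target gene. The genes were chosen by symbol. All 10 were among the 24421 genes of the deposited count table, and all 10 passed the filter on low counts that left 15220 genes for testing. RNA-Seq was run on 12 libraries to study how the transcription factors TFEB and TFE3 take part in the response to DNA damage, with 3 replicates in each of 4 groups. Null MEFs, as the labels call the control genotype, were either untreated or given 100 µM etoposide for 8 h. CRISPR TFEB/TFE3 DKO MEFs, edited in both factors, were either untreated or given the same dose for the same time. Etoposide is a topoisomerase poison that leaves breaks in DNA. The design text names the control genotype Control and the paper names it WT, and the paper gives DMSO for its control samples where the labels say untreated. The cells were SV40-immortalized, and each genotype appears to be 1 line, so that the edit and other differences between the lines cannot be told apart. Nothing in the labels says that replicates were separate cultures, so the p-values measure the spread between samples, which may be technical.

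NF-kB is a family of dimeric transcription factors built from the products of Rela, Relb, Rel, Nfkb1 and Nfkb2, held in the cytoplasm of resting cells by inhibitor of kB (IkB) proteins. Cytokines, microbial products and DNA breaks activate the IKK kinase complex, which marks IkB proteins for degradation and releases the dimers to the nucleus. Many genes that NF-kB switches on encode its own inhibitors, among them Nfkbia and Tnfaip3, so that the signal ends itself, and in fibroblasts the pathway is known for inflammatory cytokines, chemokines and matrix proteases.

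Library depth ran from 45577023 to 104120871 counts on genes, with a median of 71634158.5. Other library values moved with the groups: TMM factors were 0.884 to 0.893 in untreated DKO, 0.962 to 0.969 in untreated Null and 1.07 to 1.09 in all treated libraries. Reads on no feature made up 25.1% to 27.3% in treated Null and 20.2% to 21.1% in untreated DKO libraries, and their part in the results was not tested. Expression is given as CPM, counts divided by the library size after scaling by the trimmed mean of M values (TMM). The edited genes were examined first. Tfeb stood at 38.9, 39.2 and 42.1 CPM in the untreated Null replicates and at 4.60, 6.09 and 4.68 CPM in the untreated DKO replicates. After etoposide the Tfeb values were 11.4, 10.2 and 10.4 CPM in Null and 1.92, 1.61 and 2.20 CPM in DKO MEFs. Every DKO library was thus below every Null library of the same condition, with log2 fold changes of -2.94 (SE 0.092) untreated and -2.46 (SE 0.12) after etoposide. Tfe3 was closer between the genotypes, at 109.9 to 115 CPM in untreated Null and 91.0 to 94.1 CPM in untreated DKO MEFs (log2 fold change -0.29, SE 0.042). After etoposide Tfe3 overlapped between the genotypes, at 68.1 to 69.6 CPM in Null and 63.4 to 71.2 CPM in DKO MEFs. Gene-level counts do not show whether an edited transcript is functional, and the edited sites were not analysed here.

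Of 10 fibroblast markers, all 10 were above 1 CPM in each Null library and 9 in each DKO library. The exception was Thy1, at 4.03 to 4.50 CPM in untreated Null and 0.0168 to 0.0602 CPM in untreated DKO MEFs. The summed fibroblast list was 7592, 7555 and 7732 CPM in untreated Null, 4072, 3936 and 3926 CPM in etoposide-treated Null, 12341, 13062 and 12446 CPM in untreated DKO and 5447, 5510 and 5156 CPM in etoposide-treated DKO replicates, with Vim or Fn1 the most abundant gene. The sum was lower after etoposide in both genotypes, where 10 of 10 markers fell in Null and 9 of 10 in DKO MEFs. It was higher in DKO than in Null MEFs, but not every gene followed it there. Between genotypes 9 markers were higher and 1 lower in untreated DKO MEFs, and 8 were higher and 2 lower after etoposide, the 2 being Thy1 and Vim. Vim after etoposide was 2.04-fold lower in DKO than in Null MEFs (log2 fold change -1.03, SE 0.030, adjusted p = 5.16e-15, edgeR). Of 10 leukocyte markers, Cd14 and Cd68 were the 2 above 1 CPM. All 6 that could be tested (Ptprc, Csf1r, Itgam, Cd68, Cd14 and Lyz2) rose with etoposide in Null MEFs, and all but Csf1r rose in DKO MEFs. The summed leukocyte list was 18.1, 19.5 and 16.4 CPM in untreated Null, 78.9, 78.5 and 78.4 CPM in etoposide-treated Null, 9.31, 7.88 and 7.55 CPM in untreated DKO and 15.02, 12.4 and 15.1 CPM in etoposide-treated DKO replicates, with Cd14 the most abundant gene. Among those not tested, Adgre1, Tyrobp and Cd3e were at 0 in every untreated library and at or below 0.0875 CPM after etoposide. Ptprc was at or below 0.0301 CPM untreated and between 0.205 and 0.540 CPM after etoposide in both genotypes. Summed endothelial markers were at or below 0.221 CPM in untreated libraries, 2.30 to 2.97 CPM in treated Null and 0.914 to 1.52 CPM in treated DKO MEFs, and all 4 tested rose with etoposide in both genotypes. Of 5 epithelial markers, 2 rose and 1 fell with etoposide in Null MEFs, 2 rose and 2 fell in DKO MEFs, and 2 were higher and 2 lower in untreated DKO than in untreated Null MEFs. Krt19, the most abundant of them, rose with etoposide in Null MEFs (log2 fold change 0.64, SE 0.062), fell in DKO MEFs (-1.17, SE 0.060) and was 2.28-fold higher in untreated DKO than in untreated Null MEFs. Others went the other way: Krt8 fell in Null MEFs (-0.77), Epcam (2.50) and Cdh1 (0.76) rose in DKO MEFs, and Epcam (-3.09) and Krt18 (-3.19) were lower in untreated DKO MEFs. In bulk samples fewer cells of a type and less RNA per cell cannot be told apart, and the part of these markers in the results below was not tested.

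Among the subunits, Nfkb1 encodes a precursor whose processed form pairs most often with RELA. In Null MEFs, Nfkb1 was at 384, 361 and 391 CPM untreated and at 86.6, 91.5 and 86.6 CPM after etoposide. In DKO MEFs it was at 235, 236 and 246 CPM untreated and at 93.7, 91.6 and 92.3 CPM after etoposide. The untreated Null libraries were the highest and the untreated DKO libraries came next, while all 6 etoposide libraries lay together near the bottom of the range. Nfkb1 fell 4.29-fold in Null MEFs (log2 fold change -2.10, SE 0.038, adjusted p = 6.31e-18, Benjamini-Hochberg over all genes tested, in a quasi-likelihood fit of edgeR). In DKO MEFs it fell 2.58-fold (log2 fold change -1.37, SE 0.037, adjusted p = 1.39e-15, same edgeR test). The interaction, which is the DKO response minus the Null response, was 0.73 on the log2 scale (SE 0.052, adjusted p = 2.33e-09, edgeR). Untreated DKO MEFs held 1.59-fold less Nfkb1 than untreated Null MEFs (log2 fold change -0.66, SE 0.036, adjusted p = 2.33e-11, edgeR), and after etoposide the difference between the genotypes was 0.068 (95% interval -0.011 to 0.15, adjusted p = 0.11, edgeR).

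Relb, the subunit of the noncanonical branch, followed a similar course. Its levels in Null MEFs were 132, 126 and 135 CPM untreated and 54.5, 55.5 and 58.1 CPM after etoposide. Its levels in DKO MEFs were 121, 123 and 115 CPM untreated and 73.6, 70.5 and 67.9 CPM after etoposide. Both treated groups were below both untreated groups, and the treated DKO libraries lay above the treated Null libraries. Relb fell 2.34-fold in Null MEFs (log2 fold change -1.22, SE 0.042, adjusted p = 2.1e-14, edgeR) and 1.70-fold in DKO MEFs (log2 fold change -0.76, SE 0.042, adjusted p = 2.23e-11, edgeR), with -0.49 in DKO MEFs when libraries were scaled by size alone. The responses differed by 0.46 (SE 0.059, adjusted p = 3.44e-06, edgeR). In untreated cells Relb was 1.09-fold lower in DKO MEFs (log2 fold change -0.13, SE 0.041, adjusted p = 0.0103, edgeR), a call lost without Null untreated replicate 3 (-0.11, adjusted p = 0.054, edgeR) or without DKO untreated replicate 3 (-0.10, adjusted p = 0.0617, edgeR). Scaling by library size alone gave -0.25 for this comparison. After etoposide Relb was 1.26-fold higher in DKO than in Null MEFs (log2 fold change 0.33, SE 0.042, adjusted p = 1.53e-06, edgeR).

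Nfkb2, the precursor that pairs with RELB once processed, and Rela, which carries the main activation domain, moved less. Nfkb2 was at 360 ± 10.8 CPM (SD, n = 3) in untreated Null, 330 ± 7.97 CPM in treated Null, 301 ± 7.49 CPM in untreated DKO and 297 ± 1.70 CPM in treated DKO MEFs. The Null libraries, from 322 to 372 CPM, all lay above the DKO libraries, from 293 to 307 CPM. With TMM scaling Nfkb2 fell 1.09-fold in Null MEFs (log2 fold change -0.13, SE 0.032, adjusted p = 0.00177, edgeR), but the value turned to 0.041 (adjusted p = 0.25, edgeR) with library size alone, and with a mean of at least 1 CPM as the filter it was -0.039 (adjusted p = 0.248, edgeR). In DKO MEFs its log2 fold change was -0.019 (95% interval -0.088 to 0.049, adjusted p = 0.597, edgeR), and it turned to 0.25 (adjusted p = 1.46e-06, edgeR) with library size alone and to 0.018 with the stricter filter. The interaction of Nfkb2, 0.11 (SE 0.046), did not pass (adjusted p = 0.0579, edgeR), but it did without Null untreated replicate 2 (0.13, adjusted p = 0.0371), without Null etoposide replicate 3 (0.13, adjusted p = 0.0295), under limma-trend (adjusted p = 0.0443) and with library size alone (0.21, adjusted p = 0.000654). The other 16 of 20 alternatives kept it above the threshold, and DESeq2 gave the lowest value, 0.044, with adjusted p up to 0.448 (edgeR with DESeq2 size factors). Between genotypes Nfkb2 was lower in DKO MEFs by log2 fold changes of -0.26 untreated (SE 0.032, adjusted p = 1.61e-06, edgeR) and -0.15 after etoposide (SE 0.032, adjusted p = 0.000468, edgeR). Exons of Nfkb2 overlap those of AC114539.1 and Psd on the opposite strand, and the strand setting of the counting is not stated, so some of its counts may belong to them.

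Rela was at 169 ± 3.51 CPM (SD, n = 3) in untreated Null, 171 ± 5.44 CPM in treated Null, 145 ± 3.51 CPM in untreated DKO and 122 ± 3.45 CPM in treated DKO MEFs. The Null groups overlapped, whereas treated DKO libraries were the lowest of all 12. In Null MEFs the log2 fold change of Rela with etoposide was 0.023 (95% interval -0.051 to 0.097, adjusted p = 0.561, edgeR). It turned to -0.0051 with no filter and to -0.0061 without Null etoposide replicate 3, and it passed the test with library size alone (0.19, adjusted p = 1e-04, edgeR) and with the filter of a mean of at least 1 CPM (0.11, adjusted p = 0.00761, edgeR). In DKO MEFs Rela fell 1.19-fold with TMM scaling (log2 fold change -0.25, SE 0.035, adjusted p = 5.33e-06, edgeR), a direction that flipped to 0.020 (adjusted p = 0.608, edgeR) with library size alone. The responses differed by -0.28 (SE 0.050, adjusted p = 0.000145, edgeR), or -0.17 with library size alone. DKO MEFs held less Rela than Null MEFs both untreated (log2 fold change -0.22, SE 0.035, adjusted p = 2.85e-05, edgeR; -0.34 with library size alone) and after etoposide (log2 fold change -0.49, SE 0.035, adjusted p = 7.72e-10, edgeR).

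Promoter sequences from RefSeq on GRCm38.p6 were searched because the members include genes that NF-kB is known to control. Each promoter covered 250 bases before and 50 after the start, and 8 of the 10 members had at least 1 entry. The motifs were the 10-letter kB consensus and CACGTG, the E-box bound by TFEB and TFE3, which is the same on both strands. Both strands were searched, overlapping matches were kept, and positions count from the start. The stretch printed for Nfkb2 is the 150 bases before a start at chr19:46304587-46304736 on the + strand, with kB matches in capitals at -39, -38 and -11, of which the first pair overlap.
Nfkb2: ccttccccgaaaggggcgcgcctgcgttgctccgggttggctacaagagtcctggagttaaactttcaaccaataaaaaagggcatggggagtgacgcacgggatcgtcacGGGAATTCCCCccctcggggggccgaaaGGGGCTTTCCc

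**Figure D1:**
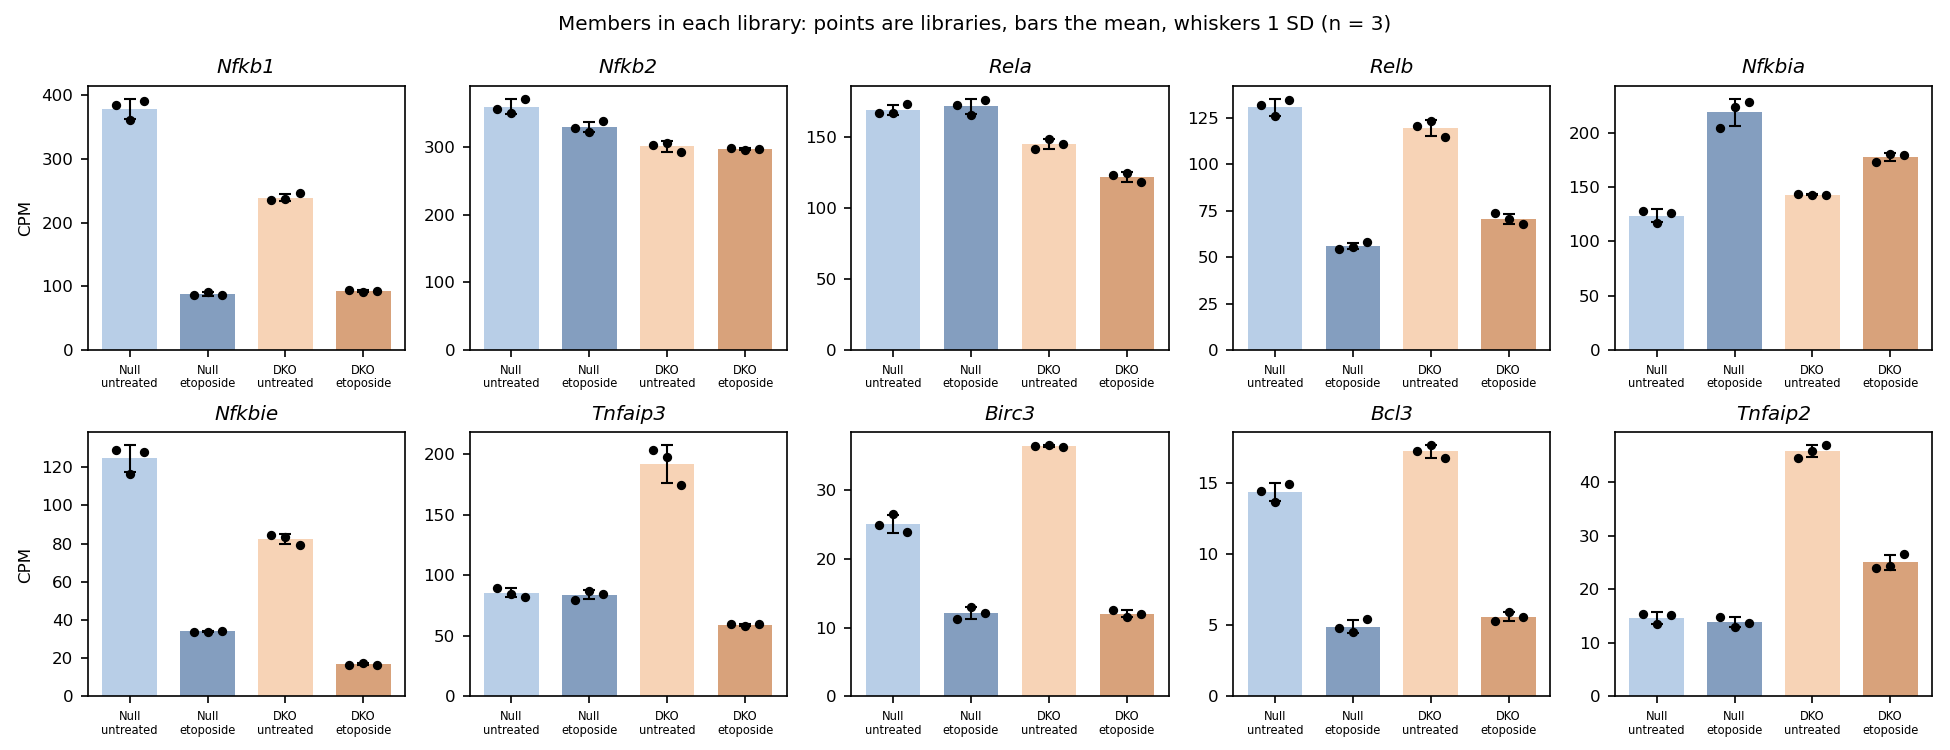
Levels of the 10 members in CPM in each of the 12 libraries, with a panel for each gene, points for libraries, bars for the mean of 3 replicates and whiskers for 1 SD. Nfkb1 and Nfkbie drop after etoposide in both genotypes, Nfkbia is higher after it, and Tnfaip3 and Tnfaip2 are highest in untreated DKO MEFs.

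Of the IkB family genes, Nfkbia encodes IkB alpha, which retains NF-kB dimers in the cytoplasm and is itself induced by them. Nfkbia read 128, 117 and 126 CPM in untreated Null MEFs and 204, 223 and 229 CPM after etoposide. The DKO replicates read 144, 142 and 143 CPM untreated and 174, 180.3 and 179.8 CPM after etoposide. Treated libraries were above untreated ones in both genotypes, with the highest values in treated Null MEFs. Nfkbia rose 1.77-fold in Null MEFs (log2 fold change 0.82, SE 0.043, adjusted p = 6.4e-12, edgeR) and 1.25-fold in DKO MEFs (log2 fold change 0.32, SE 0.043, adjusted p = 3.42e-06, edgeR), the latter 0.59 with library size alone. The interaction was -0.51 (SE 0.060, adjusted p = 1.49e-06, edgeR). Before treatment Nfkbia was 1.15-fold higher in DKO than in Null MEFs (log2 fold change 0.21, SE 0.043, adjusted p = 0.000349, edgeR), which did not pass with library size alone (0.087, adjusted p = 0.083, edgeR). After etoposide it was 1.23-fold lower in DKO MEFs (log2 fold change -0.30, SE 0.042, adjusted p = 5.53e-06, edgeR).

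Nfkbie, which encodes IkB epsilon, went the other way. Nfkbie was at 129, 117 and 128 CPM in untreated Null replicates and at 33.9, 33.7 and 34.5 CPM in treated ones. DKO replicates were at 84.5, 83.2 and 79.5 CPM untreated and at 16.3, 17.4 and 16.7 CPM treated. The 4 groups were fully separated, from untreated Null at the top to treated DKO MEFs at the bottom. The fall was 3.66-fold in Null MEFs (log2 fold change -1.87, SE 0.045, adjusted p = 1.76e-16, edgeR) and 4.90-fold in DKO MEFs (log2 fold change -2.29, SE 0.048, adjusted p = 4.12e-17, edgeR). The responses of Nfkbie differed by -0.42 (SE 0.064, adjusted p = 2.61e-05, edgeR). DKO MEFs held 1.51-fold less Nfkbie untreated (log2 fold change -0.60, SE 0.042, adjusted p = 9.55e-10, edgeR) and 2.02-fold less after etoposide (log2 fold change -1.02, SE 0.049, adjusted p = 3.21e-12, edgeR).

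The promoters of Nfkbia, Nfkbie and Bcl3 each held a kB match, that of Bcl3 at 3, and the first pair are shown because their transcripts moved in opposite directions. The Nfkbia stretch lies at chr12:55492648-55492797 on the - strand with its match at -29, and the Nfkbie stretch at chr17:45555550-45555699 on the + strand with its match at -106, each in capitals within the 150 bases before the start.
Nfkbia: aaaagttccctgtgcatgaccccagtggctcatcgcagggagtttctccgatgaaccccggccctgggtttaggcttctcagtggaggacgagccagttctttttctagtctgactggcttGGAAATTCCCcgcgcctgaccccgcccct
Nfkbie: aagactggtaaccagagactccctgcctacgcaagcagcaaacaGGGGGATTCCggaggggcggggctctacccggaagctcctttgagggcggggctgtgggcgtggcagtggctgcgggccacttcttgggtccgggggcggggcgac

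Bcl3 encodes an atypical IkB protein that works in the nucleus with dimers of processed NFKB1 or NFKB2. It was at 14.4, 13.7 and 14.9 CPM in untreated Null MEFs and at 4.80, 4.52 and 5.41 CPM after etoposide. The DKO values were 17.3, 17.6 and 16.7 CPM untreated and 5.28, 5.93 and 5.56 CPM after etoposide. Treated libraries of both genotypes overlapped at the bottom, far below the untreated ones. Bcl3 fell 2.94-fold in Null MEFs (log2 fold change -1.55, SE 0.077, adjusted p = 3.23e-12, edgeR) and 3.07-fold in DKO MEFs (log2 fold change -1.62, SE 0.075, adjusted p = 1.97e-12, edgeR). The interaction was -0.065 (95% interval -0.30 to 0.17, adjusted p = 0.654, edgeR), and it turned to 0.040 with library size alone and to 0.0070 without Null etoposide replicate 3. Untreated DKO MEFs held 1.20-fold more Bcl3 than Null MEFs (log2 fold change 0.26, SE 0.066, adjusted p = 0.00188, edgeR), which did not pass with library size alone (0.14, adjusted p = 0.065, edgeR). After etoposide the genotype difference of 0.20 (SE 0.087, adjusted p = 0.0478, edgeR) sat at the threshold although the groups overlapped. It did not pass without Null etoposide replicate 1 (0.18) or 2 (0.13), nor without DKO etoposide replicate 1 (0.21), 2 (0.14) or 3 (0.19), nor in 7 other settings. Exons of Bcl3 overlap Gm16175 on the opposite strand.

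Tnfaip3 encodes a ubiquitin-editing enzyme that shuts IKK activation down and is a standard NF-kB feedback gene. Null replicates held 89.9, 84.3 and 82.4 CPM of Tnfaip3 untreated and 79.8, 87.2 and 84.9 CPM after etoposide. DKO replicates held 203, 198 and 174 CPM untreated and 59.6, 58.3 and 59.4 CPM after etoposide. The Null groups overlapped, while the DKO groups were the highest and the lowest of the 4. In Null MEFs the log2 fold change of Tnfaip3 was -0.028 (95% interval -0.14 to 0.083, adjusted p = 0.637, edgeR). Its sign changed under DESeq2 (0.018), with DESeq2 size factors in edgeR (0.018), with the filter of a mean of at least 1 CPM (0.060), without Null untreated replicate 1 (0.0022) or Null etoposide replicate 1 (0.0018), and with library size alone, where it passed the test (0.14, adjusted p = 0.0206, edgeR). In DKO MEFs Tnfaip3 fell 3.25-fold (log2 fold change -1.70, SE 0.053, adjusted p = 9.36e-15, edgeR). The responses differed by -1.67 (SE 0.075, adjusted p = 6.64e-12, edgeR), the most negative interaction of the 10 members. Tnfaip3 was 2.24-fold higher in DKO than in Null MEFs before treatment (log2 fold change 1.17, SE 0.052, adjusted p = 1.65e-12, edgeR) and 1.42-fold lower after it (log2 fold change -0.51, SE 0.053, adjusted p = 1.34e-07, edgeR).

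Of 2 Tnfaip3 promoters in the table, 1 held neither motif and the other was the only member promoter with both. The stretch of the latter lies at chr10:19015411-19015560 on the - strand, 150 bases before the start, and its capitals mark kB matches at -125 and -12 and the CACGTG E-box at -33.
Tnfaip3: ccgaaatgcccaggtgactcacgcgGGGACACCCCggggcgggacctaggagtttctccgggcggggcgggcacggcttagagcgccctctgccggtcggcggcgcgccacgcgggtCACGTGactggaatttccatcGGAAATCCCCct

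Birc3 encodes an inhibitor-of-apoptosis protein and ubiquitin ligase that acts at the TNF receptor and restrains the noncanonical branch. It was at 25.1 ± 1.31 CPM (SD, n = 3) in untreated Null, 12.1 ± 0.814 CPM in treated Null, 36.4 ± 0.150 CPM in untreated DKO and 12.004 ± 0.520 CPM in treated DKO MEFs. The treated groups overlapped and the untreated groups did not. Birc3 fell 2.07-fold in Null MEFs (log2 fold change -1.05, SE 0.059, adjusted p = 1.95e-11, edgeR) and 3.04-fold in DKO MEFs (log2 fold change -1.60, SE 0.058, adjusted p = 7.14e-14, edgeR), with an interaction of -0.55 (SE 0.083, adjusted p = 2.14e-05, edgeR). It was 1.45-fold higher in untreated DKO than in untreated Null MEFs (log2 fold change 0.53, SE 0.054, adjusted p = 1.03e-07, edgeR). After etoposide the genotype difference was -0.020 (95% interval -0.15 to 0.11, adjusted p = 0.789, edgeR), and 0.024 without Null etoposide replicate 2.

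Tnfaip2, a cytokine-induced target gene, was low in Null MEFs, at 15.5, 13.4 and 15.2 CPM untreated and 14.8, 13.04 and 13.7 CPM after etoposide. In DKO MEFs it was at 44.6, 45.9 and 46.9 CPM untreated and at 24.0, 24.4 and 26.7 CPM after etoposide. The Null groups overlapped, and every DKO library was above every Null library. Etoposide left a log2 fold change of -0.086 in Null MEFs (95% interval -0.23 to 0.056, adjusted p = 0.248, edgeR), which turned to 0.082 with library size alone and to 0.0022 with the filter of a mean of at least 1 CPM. Tnfaip2 fell 1.82-fold in DKO MEFs (log2 fold change -0.87, SE 0.059, adjusted p = 4.66e-10, edgeR), and the responses differed by -0.78 (SE 0.089, adjusted p = 9.47e-07, edgeR). DKO MEFs held 3.11-fold more Tnfaip2 untreated (log2 fold change 1.64, SE 0.062, adjusted p = 1.62e-13, edgeR) and 1.81-fold more after etoposide (log2 fold change 0.86, SE 0.064, adjusted p = 1.36e-09, edgeR). Exons of Tnfaip2 overlap Gm40578 on the opposite strand.

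The first comparison asked how the pathway genes responded to DNA damage in Null MEFs. Of the 10 members, 6 fell, against 37.2% of all genes tested, and 1 rose, Nfkbia, against 42.3% of all genes. Nfkb1, Nfkbie, Bcl3, Relb and Birc3 fell by more than 2-fold, and Rela, Tnfaip3 and Tnfaip2 did not pass. The median log2 fold change of the members was -0.59, beside 0.066 over all genes tested. Scaling by library size alone moved the median of all genes by 0.17 and the share of calls that were higher from 53.2% to 64.0%, and 3 members were then higher (Nfkbia, Rela and Tnfaip3) and 5 lower.

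In DKO MEFs the same question gave 8 members that fell, against 31.5% of all genes tested, and 1 that rose, Nfkbia, against 43.7%. Nfkbie, Tnfaip3, Bcl3, Birc3 and Nfkb1 fell by more than 2-fold, and Nfkb2 did not pass. The members had a median of -1.12, beside 0.14 over all genes. Library size alone moved the median of all genes by 0.27 and the share of calls that were higher from 58.1% to 75.6%, with 2 members higher (Nfkbia and Nfkb2) and 7 lower. The comparison within DKO MEFs shares no library with that within Null MEFs.

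**Figure D2:**
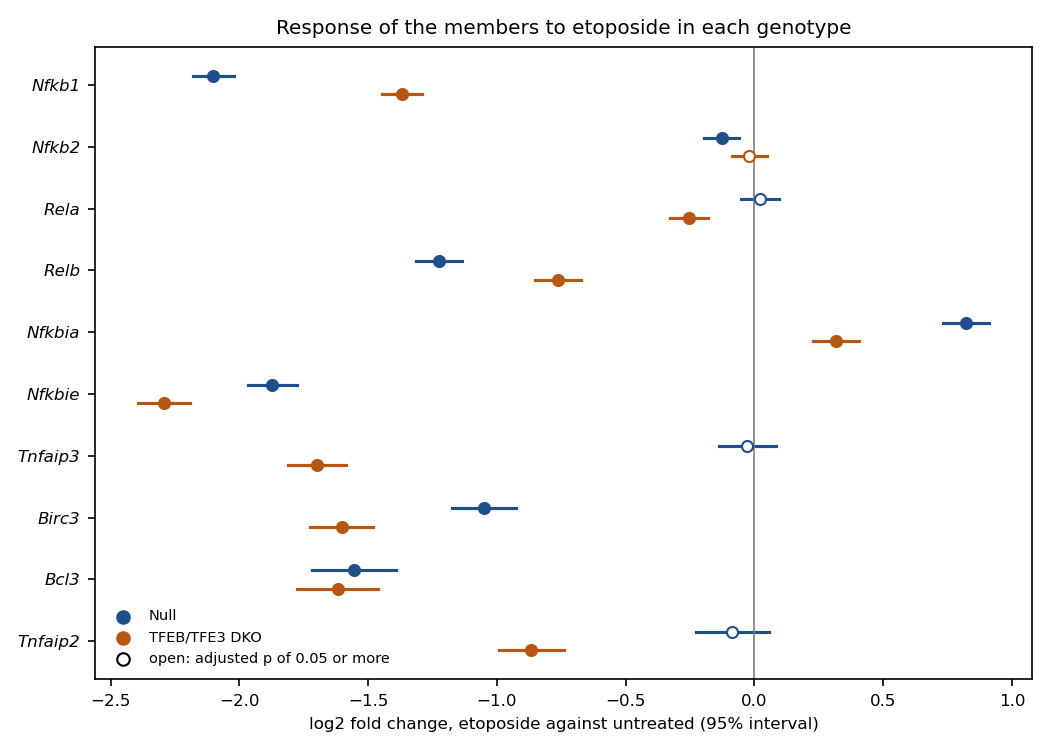
Log2 fold change of each member, etoposide against untreated, in Null and in TFEB/TFE3 DKO MEFs, with 95% intervals and open points where the adjusted p was 0.05 or more. Nfkbia alone lies above 0 in both genotypes and passes, while with library size alone Nfkb2 in both genotypes, Rela in DKO, and Tnfaip3 and Tnfaip2 in Null MEFs change sign.

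Whether the responses differed between the genotypes was tested by the interaction. It was negative for 6 members (Tnfaip3, Tnfaip2, Birc3, Nfkbia, Nfkbie and Rela), against 24.4% of all genes tested, and positive for 2 (Nfkb1 and Relb), against 29.6%. The median over the members was -0.35, beside 0.047 over all genes. Library size alone moved the latter by 0.10 and the share of calls that were positive from 54.8% to 65.2%, with Nfkb2 joining the positive members. DESeq2 size factors moved them the other way, to a median of -0.016 and a positive share of 47.5%.

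The comparison of genotypes before treatment asked how the DKO and Null lines differed in untreated cells. All 10 members passed: Tnfaip2, Tnfaip3, Birc3, Bcl3 and Nfkbia were higher in DKO MEFs (5 members, against 33.3% of all genes tested), and Nfkb1, Nfkbie, Nfkb2, Rela and Relb were lower (5 members, against 33.4%). The 4 subunit genes were thus all on the lower side, under each scaling tried. Members had a median of 0.039, beside -0.024 over all genes. Library size alone moved the median of all genes by -0.12 and the share of calls that were higher from 49.9% to 38.4%, and left 3 members higher (Tnfaip2, Tnfaip3 and Birc3). In this comparison the replicates of the genotypes overlapped for none of the 10 members. The share of all genes tested without such overlap was not computed.

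After etoposide, 5 members were lower in DKO than in Null MEFs (Nfkbie, Tnfaip3, Rela, Nfkbia and Nfkb2), against 36.6% of all genes tested, and 3 were higher (Tnfaip2, Relb and Bcl3), against 37.5%. The median was -0.085, beside -0.0045 over all genes, and DESeq2 size factors moved the share of calls that were higher from 50.6% to 45.4%. Tnfaip3 and Nfkbia, higher in DKO MEFs before treatment, were among those lower after it, and Relb went from lower to higher. The comparisons share their groups with those above, so that their values are given side by side and not counted as separate evidence.

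**Figure D3:**
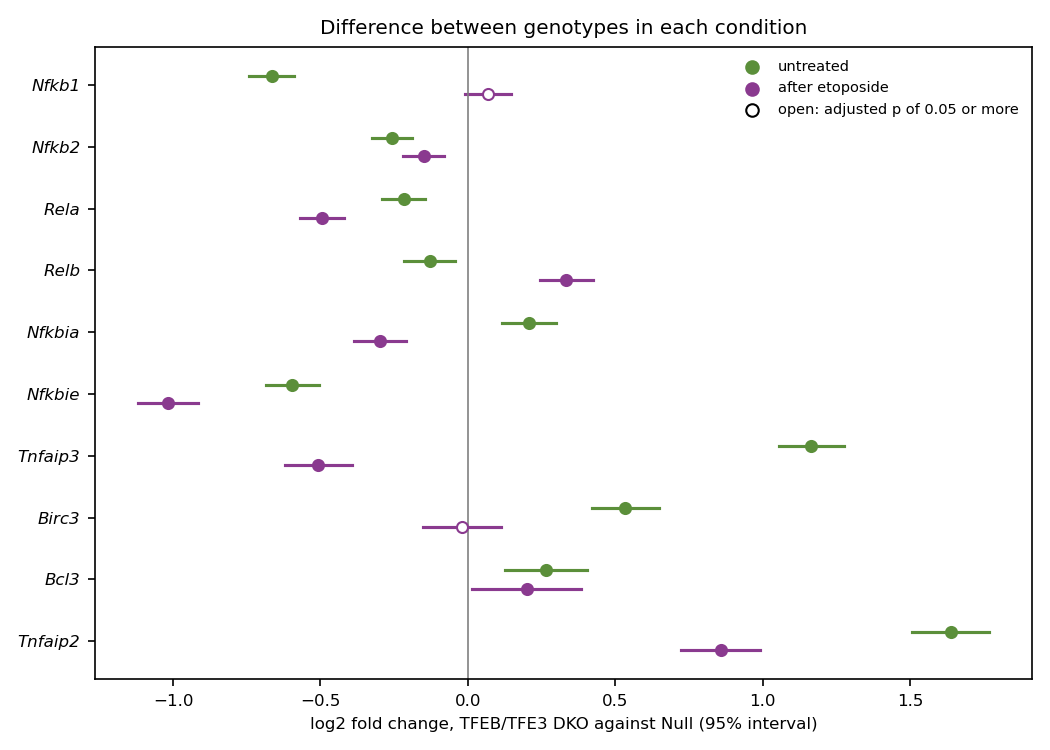
Log2 fold change of each member, TFEB/TFE3 DKO against Null MEFs, untreated and after etoposide, with 95% intervals and open points where the adjusted p was 0.05 or more. Tnfaip2 is higher in DKO MEFs in both conditions, and Tnfaip3 is higher untreated (1.17) and lower after etoposide (-0.51).

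Levels of different genes were compared as CPM per kb of exon in GENCODE M21. The length merged all annotated exons of a gene, and was 12.06 kb for Nfkb1 and 4.584 kb for Nfkb2. Before this division Nfkb1 was at 379 ± 15.9 CPM (SD, n = 3) and Nfkb2 at 360 ± 10.8 CPM in untreated Null MEFs. The orders below therefore depend on the length used, and the annotation behind the counts may differ. In untreated Null MEFs the order was Nfkb2 (78.5 ± 2.36, SD, n = 3), Nfkbia (76.8 ± 3.68), Rela (54.9), Nfkbie (40.9), Relb (33.7 ± 1.18), Nfkb1 (31.4 ± 1.31), Tnfaip3 (11.8), Bcl3 (5.80), Birc3 (5.01) and Tnfaip2 (2.95). Nfkb2 and Nfkbia did not differ beyond their spread, taken as the sum of their SDs, nor did Relb and Nfkb1. In treated Null MEFs Nfkbia led with 135.9 CPM per kb, ahead of Nfkb2 (71.9), Rela (55.8), Relb (14.4), Tnfaip3 (11.6), Nfkbie (11.2), Nfkb1 (7.32), Tnfaip2 (2.78), Birc3 (2.42) and Bcl3 (1.98), and Tnfaip3 and Nfkbie were within their spread. Untreated DKO MEFs ranked Nfkbia (88.8), Nfkb2 (65.7), Rela (47.2), Relb (30.8), Nfkbie (27.1), Tnfaip3 (26.6), Nfkb1 (19.8), Tnfaip2 (9.19), Birc3 (7.26) and Bcl3 (6.95), with Nfkbie and Tnfaip3 within their spread. Treated DKO MEFs ranked Nfkbia (110.5), Nfkb2 (64.8), Rela (39.6), Relb (18.2), Tnfaip3 (8.18), Nfkb1 (7.67), Nfkbie (5.51), Tnfaip2 (5.02), Birc3 (2.40) and Bcl3 (2.26). In that group Birc3 and Bcl3 lay within their spread of each other. Per kb of merged exon, Nfkbia was thus the most abundant member in 3 of the 4 groups. It stood level with Nfkb2 in the remaining one. Whether other lengths would keep this order was not tested.

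The kB consensus was found in 8 of the 11 member promoters (72.7%), belonging to Bcl3, Tnfaip3, Nfkbia, Tnfaip2, Nfkbie and Nfkb2, and in 2779 of all 32851 promoters of the table (8.46%). By gene this was 6 of 8 members and 2581 of 27025 genes. Nfkb2 supplied 3 of the 8 promoters, of which a pair overlap and share 1 site, so that this site was counted in each. CACGTG was found in 1 of the 11, that of Tnfaip3 (9.09%), and in 2349 of all promoters (7.15%). The promoters of Rela and Birc3 and 1 of the 2 of Tnfaip3 held neither motif. A match describes letters in this window, and binding was not measured here.

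Of 105 other genes of the pathway, in 8 lists, 99 were tested. In Null MEFs after etoposide 32 rose and 48 fell, against 42.3% and 37.2% of all genes tested, with a median log2 fold change of -0.11. In DKO MEFs 27 rose and 52 fell, against 43.7% and 31.5% (median -0.17). Untreated, 58 were higher and 23 lower in DKO than in Null MEFs, against 33.3% and 33.4% (median 0.23), and after etoposide 44 were higher and 37 lower, against 37.5% and 36.6% (median 0.029). Interactions were positive for 28 and negative for 37, against 29.6% and 24.4% (median 0.0060). The same shares of all genes stand beside the counts of each list below, which include genes close to the threshold. The medians of all genes for these comparisons, given above, were 0.066, 0.14, -0.024, -0.0045 and 0.047.

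**Figure D4:**
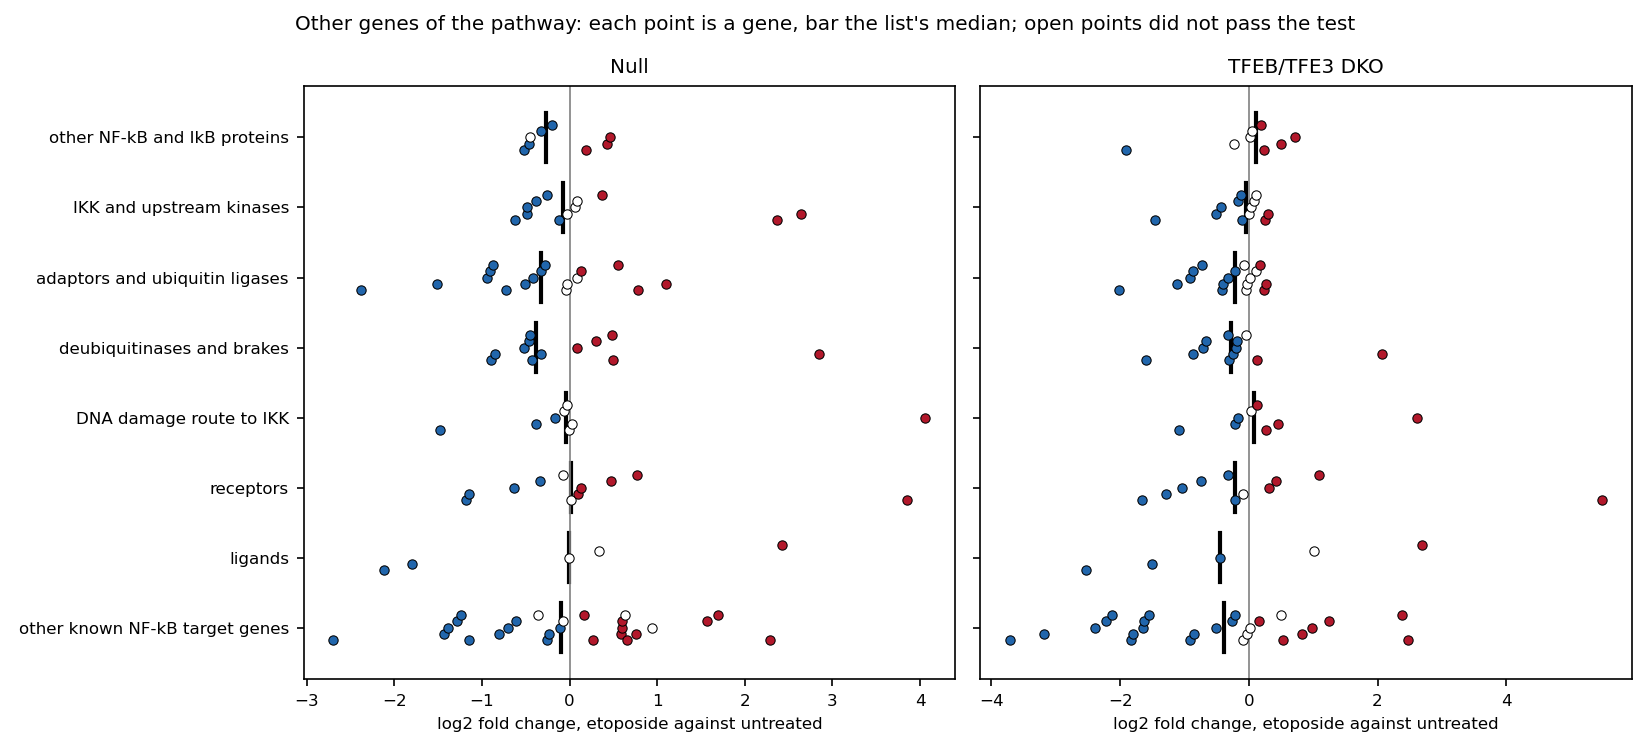
Log2 fold change with etoposide of each tested gene of the 8 pathway lists in Null and in TFEB/TFE3 DKO MEFs, with a bar at each list's median and open points where the adjusted p was 0.05 or more. Pidd1, in the DNA damage list, reaches 4.06 in Null and 2.61 in DKO MEFs.

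The list of other NF-kB and IkB proteins held 8 genes, among them Nkrf, Nkap and Nkiras1, which encode neither kind of protein. Of these 8, 3 rose and 4 fell with etoposide in Null MEFs (median -0.27), and 4 rose and 1 fell in DKO MEFs (median 0.12). Nkrf (0.72) and Nkap (0.50) were among the 4 rises in DKO MEFs. Rel, the remaining activating subunit, was at 12.8 ± 1.40 CPM (SD, n = 3) in untreated Null MEFs and fell there with etoposide (log2 fold change -0.52, SE 0.10, adjusted p = 0.000159, edgeR). Nfkbiz, an inducible nuclear IkB protein, was at 49.1, 47.7 and 52.6 CPM in untreated Null and 100.2, 107 and 91.7 CPM in untreated DKO MEFs. Nfkbiz fell with etoposide in DKO MEFs (log2 fold change -1.90, SE 0.071, adjusted p = 9.33e-14, edgeR) more than in Null MEFs (interaction -1.44, SE 0.099, adjusted p = 1.52e-09, edgeR). Between genotypes, 2 genes of the list were higher and 1 lower in untreated DKO MEFs (median -0.023), and 4 were higher and 3 lower after etoposide (median 0.034). Nkrf, which encodes a repressor of NF-kB genes, had the highest interaction of the list (1.05, SE 0.069, adjusted p = 1.01e-09, edgeR), and interactions were positive for 2 and negative for 2 of the 8 (median 0.17).

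The list of IKK subunits and upstream kinases held 12 genes, including Tab1, Tab2 and Tab3, whose products are neither. Of these 12, 3 rose and 6 fell in Null MEFs after etoposide (median -0.073), and 2 rose and 6 fell in DKO MEFs (median -0.050). Tab1 (0.25) was 1 of the 2 rises in DKO MEFs. Of the 2 rises in DKO MEFs, Ikbke (0.29, adjusted p = 0.0112, edgeR) did not pass without DKO untreated replicate 2 (0.21), DKO etoposide replicate 1 (0.24) or DKO etoposide replicate 2 (0.22), while library size alone raised it to 0.57. Map3k8, a kinase that binds the NFKB1 precursor, was at 1.89, 2.21 and 2.84 CPM in untreated Null and 14.6, 14.2 and 14.04 CPM in treated Null MEFs. In DKO MEFs Map3k8 was at 6.02, 4.84 and 4.36 CPM untreated and 5.34, 5.03 and 5.93 CPM treated. The treated Null libraries were therefore the highest and the DKO groups overlapped. Map3k8 rose 6.24-fold in Null MEFs (log2 fold change 2.64, SE 0.13, adjusted p = 1.83e-12, edgeR), and its interaction was -2.53 (SE 0.18, adjusted p = 2.65e-09, edgeR). Ikbke, an IKK-related kinase, rose 5.15-fold in Null MEFs (log2 fold change 2.36, SE 0.094, adjusted p = 1.51e-13, edgeR). Map3k14, the noncanonical kinase, fell 2.73-fold in DKO MEFs (log2 fold change -1.45, SE 0.050, adjusted p = 3.87e-14, edgeR). In Null MEFs Map3k14 fell as well, by 1.54-fold (log2 fold change -0.63, SE 0.050, adjusted p = 2.61e-09, edgeR). Between genotypes, 7 were higher and 3 lower in untreated DKO MEFs (median 0.34), and 4 were higher and 7 lower after etoposide (median -0.19). Positive interactions numbered 3, led by Map3k3 (0.38, SE 0.043, adjusted p = 9.71e-07, edgeR), and negative ones 5 (median -0.046).

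Of 17 adaptors and ubiquitin ligases, 4 rose and 10 fell in Null MEFs after etoposide (median -0.33), and 3 rose and 9 fell in DKO MEFs (median -0.21). Traf5, an adaptor of TNF receptors, fell 5.20-fold in Null MEFs (log2 fold change -2.38, SE 0.076, adjusted p = 7.03e-15, edgeR) and 4.05-fold in DKO MEFs (log2 fold change -2.02, SE 0.062, adjusted p = 7.02e-15, edgeR). Fbxw11, part of the ligase that tags IkB proteins, fell in both as well (log2 fold changes -1.52 and -1.11). Myd88, the adaptor of Toll-like receptors, rose 2.14-fold in Null MEFs (log2 fold change 1.10, SE 0.048, adjusted p = 6.02e-13, edgeR), with an interaction of -0.99 (SE 0.067, adjusted p = 1.39e-09, edgeR). Untreated DKO MEFs had 10 genes of the list higher, with Birc2 leading (log2 fold change 0.91, SE 0.049), and 2 lower, Traf1 (-0.79, SE 0.052) and Btrc (-0.50, SE 0.057), with a median of 0.13. After etoposide 9 were higher and 3 lower (median 0.13). Among interactions 6 were positive, led by Btrc (0.67, SE 0.083, adjusted p = 2.57e-06, edgeR), and 3 negative (median 0.038).

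Of 12 deubiquitinases and other brakes, 5 rose and 7 fell in Null MEFs after etoposide (median -0.38), and 2 rose and 9 fell in DKO MEFs (median -0.27). Of the 2 rises in DKO MEFs, Tnip2 (0.12, adjusted p = 0.0264, edgeR) did not pass without DKO untreated replicate 1 (0.064) or 2 (0.093), without DKO etoposide replicate 1 (0.101) or 2 (0.086), or in 4 other settings, while library size alone raised it to 0.39. Tnip3, a partner of the Tnfaip3 product, rose in both, from 0.504, 0.461 and 0.587 CPM to 3.19, 3.64 and 4.40 CPM in Null MEFs (log2 fold change 2.84, SE 0.23, adjusted p = 4.15e-09, edgeR) and by 2.07 in DKO MEFs (SE 0.30, adjusted p = 9.16e-06, edgeR). Zc3h12a, which encodes an RNase of inflammatory transcripts, fell 3.03-fold in DKO MEFs (log2 fold change -1.60, SE 0.11, adjusted p = 3.21e-10, edgeR). Between genotypes, 5 were higher and 4 lower untreated (median -0.066), and 3 were higher and 8 lower after etoposide (median -0.16). The interaction was positive for 6, led by Tnip1 (0.33, SE 0.077, adjusted p = 0.00135, edgeR), and negative for 5, led by Pdlim2 (-1.17, SE 0.12, adjusted p = 3.02e-07, edgeR), with a median of -0.12.

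Of 8 genes of the route from DNA damage to IKK, 1 rose and 3 fell in Null MEFs after etoposide (median -0.045), and 4 rose and 3 fell in DKO MEFs (median 0.076). Xiap, 1 of these 3 falls (-0.21), turned to 0.060 with library size alone. Pidd1, whose product brings the damage signal to the IKK regulatory subunit, was at 2.42, 3.86 and 2.24 CPM in untreated Null and 50.3, 47.1 and 43.7 CPM in treated Null MEFs. In DKO MEFs Pidd1 was at 3.58, 4.20 and 3.66 CPM untreated and 25.1, 24.1 and 21.6 CPM treated. It rose 16.7-fold in Null MEFs (log2 fold change 4.06, SE 0.12, adjusted p = 2.95e-15, edgeR) and 6.10-fold in DKO MEFs (log2 fold change 2.61, SE 0.12, adjusted p = 1.82e-12, edgeR), with an interaction of -1.45 (SE 0.19, adjusted p = 3.4e-06, edgeR). Erc1, an IKK scaffold, fell in both (log2 fold changes -1.48 and -1.09). Between genotypes, 7 were higher and 1 lower in untreated DKO MEFs (median 0.31), and 6 were higher and 1 lower after etoposide (median 0.46). The interaction was positive for 5, led by Atm (0.49, SE 0.064, adjusted p = 4.83e-06, edgeR), and negative for 2 (median 0.24).

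Of 11 receptors, 5 rose and 4 fell in Null MEFs after etoposide (median 0.014), and 4 rose and 6 fell in DKO MEFs (median -0.21). Tlr2 was at 72.0, 70.0 and 70.1 CPM in untreated and 96.6, 98.9 and 99.8 CPM in treated Null MEFs. The DKO values of Tlr2 were 91.3, 91.4 and 94.5 CPM untreated and 29.1, 29.4 and 29.6 CPM treated, so that the genotypes moved apart. It rose in Null MEFs (log2 fold change 0.48, SE 0.033, adjusted p = 3.68e-10, edgeR), fell in DKO MEFs (log2 fold change -1.65, SE 0.035, adjusted p = 4.98e-17, edgeR) and had an interaction of -2.13 (SE 0.048, adjusted p = 2.43e-15, edgeR). Il1r1, the interleukin-1 receptor gene, fell in both (log2 fold changes -1.18 and -1.29). Between genotypes, 8 were higher and 3 lower untreated (median 0.25), and 7 were higher and 3 lower after etoposide (median 0.25). Tnfrsf1a, 1 of the 3 lower untreated (-0.095, adjusted p = 0.0488, edgeR), did not pass when any of the 6 untreated libraries was left out (-0.11 to -0.080), or in 4 other settings, while library size alone made it -0.22. Only 5 of 15 alternatives kept this call. The interaction was positive for 3, among them Tnfrsf12a (0.39, SE 0.053, adjusted p = 8.39e-06, edgeR), and negative for 3 (median 0.13). Of 10 ligands only 5 were tested, since Tnf, Il1b, Lta, Tnfsf14 and Cd40lg were too low, Tnf for instance at or below 0.150 CPM in every library. Of those 5, 1 rose and 2 fell in Null MEFs (median -0.0017), 1 rose and 3 fell in DKO MEFs (median -0.45), 2 were higher and 2 lower in untreated DKO MEFs (median -0.045), and 1 was lower after etoposide (median -0.28). Tnfsf12 was 1 of the 2 higher untreated (0.28, adjusted p = 0.0103, edgeR) and did not pass without Null untreated replicate 1 (0.24), without DKO untreated replicate 2 (0.23) or with library size alone (0.16), nor did its fall in DKO MEFs (-0.45) with library size alone (-0.18). Tnfsf12 carried the 1 interaction that passed among the ligands, and it was negative (-0.45, SE 0.13, adjusted p = 0.00683, edgeR; list median -0.45).

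Of 26 other known NF-kB target genes tested, 10 rose and 12 fell in Null MEFs after etoposide (median -0.093), and 7 rose and 15 fell in DKO MEFs (median -0.38). Gadd45b, 1 of the 7 rises (0.16, adjusted p = 0.0121, edgeR), did not pass without DKO untreated replicate 1 (0.14) or 3 (0.12) or without DKO etoposide replicate 3 (0.13), while library size alone raised it to 0.44. The chemokine gene Ccl2 was at 454, 415 and 398 CPM in untreated and 164, 183 and 189 CPM in treated Null MEFs, and at 399, 401 and 396 CPM in untreated and 44.5, 44.3 and 43.3 CPM in treated DKO MEFs. Treated DKO libraries were the lowest by a wide margin. Ccl2 fell 9.05-fold in DKO MEFs (log2 fold change -3.18, SE 0.055, adjusted p = 4.45e-18, edgeR) and was 4.06-fold lower there than in treated Null MEFs (log2 fold change -2.02, SE 0.053, adjusted p = 1.14e-15, edgeR). Ccl7, its neighbour on the chromosome, fell 13.1-fold in DKO MEFs (log2 fold change -3.71, SE 0.091, adjusted p = 3.49e-16, edgeR), and Cxcl1 after etoposide was 5.33-fold lower in DKO than in Null MEFs (log2 fold change -2.41, SE 0.057, adjusted p = 3.2e-16, edgeR). Ccl20 fell 6.50-fold in Null MEFs (log2 fold change -2.70, SE 0.071, adjusted p = 6.33e-16, edgeR), and its interaction was 0.88 (SE 0.089, adjusted p = 2.37e-07, edgeR). Opposite to Ccl2 and Cxcl1, Ccl20 after etoposide was higher in DKO than in Null MEFs, as it already was untreated: 7.90-fold untreated (log2 fold change 2.98, SE 0.054, adjusted p = 8.71e-18, edgeR) and 14.5-fold after etoposide (log2 fold change 3.86, SE 0.068, adjusted p = 1.07e-17, edgeR). The cytokine genes Csf2 and Il6 were low but rose in Null MEFs, by log2 fold changes of 2.29 (SE 0.19, adjusted p = 4.34e-09, edgeR) and 1.70 (SE 0.25, adjusted p = 7.21e-06, edgeR).

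In untreated cells 17 of these target genes were higher and 7 lower in DKO than in Null MEFs (median 0.66), and after etoposide 11 were higher and 11 lower (median -0.054). Mmp13, a collagenase gene, was at 9.82, 8.34 and 10.0 CPM in untreated Null and 103, 106 and 123 CPM in untreated DKO MEFs, with no overlap. It was 11.7-fold higher in DKO MEFs (log2 fold change 3.55, SE 0.081, adjusted p = 1.66e-16, edgeR) and 10.9-fold higher after etoposide (log2 fold change 3.45, SE 0.086, adjusted p = 6.37e-16, edgeR). Icam1, which encodes an adhesion molecule, was at 1.06, 0.999 and 0.602 CPM in untreated Null and 8.89, 10.3 and 10.4 CPM in untreated DKO MEFs. After etoposide the Icam1 values were 2.61, 2.53 and 2.90 CPM in Null and 3.02, 3.61 and 3.44 CPM in DKO MEFs. Icam1 was thus 10.98-fold higher in untreated DKO MEFs (log2 fold change 3.46, SE 0.15, adjusted p = 7.82e-13, edgeR), and its interaction was -3.11 (SE 0.21, adjusted p = 1.6e-09, edgeR). The interaction was positive for 3 and negative for 16 of the 26 (median -0.56). Vcam1, another adhesion gene, fell 2.71-fold in Null MEFs with etoposide (log2 fold change -1.44, SE 0.042, adjusted p = 2e-15, edgeR). Exons of Nkap, Nkiras1, Ikbke, Traf5, Myd88, Btrc, Erc1, Csf2, Icam1 and Vcam1 overlap at least 1 gene on the opposite strand. Those of Map3k14, Traf5 and Tnfsf12 overlap a gene on the same strand. The counts of all these genes are therefore less certain.

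The genes whose log2 CPM was most like that of 3 members over the 12 libraries were named by Pearson r among 9352 genes. For Nfkbia they were Trafd1 (r = 0.990), Ttf1 (r = 0.990) and Thyn1 (r = 0.990). For Nfkb2 they were Msto1 (r = 0.986), Mapk11 (r = 0.976) and Smg5 (r = 0.976). For Tnfaip3 they were Rgs3 (r = 0.993), Tgfb3 (r = 0.993) and Ralb (r = 0.990). Because the 12 libraries fall into 4 groups, such values are common, and r exceeded 0.95 for 219 genes with Nfkbia, 57 with Nfkb2 and 38 with Tnfaip3.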

How the data were processed

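RNA of MEFs was sequenced as 12 stranded, ribosome-depleted, paired-end libraries. The authors aligned reads with HISAT2 and deposited raw counts per gene. The paper names HTSeq on GENCODE for the counting, the submitters' notes name featureCounts on mm10, and no versions are given. The strand setting is not stated. Here, 5 summary lines were left out and 2 repeated symbols, none a member, were noted.

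In R 4.3.3, edgeR 4.0.16 filtered low counts over 4 groups, scaled libraries by TMM and fitted a quasi-likelihood model with 1 mean per group, from which 5 comparisons were drawn. The p-values were adjusted over all 15220 genes, with 0.05 as threshold, and log2 CPM used a prior count of 2. Library depth had a median of 71634158.5 counts. At each library's own depth and TMM factor, 3 counts equal 0.0298 to 0.0607 CPM. The scripts were tested on simulated data.

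Alternatives were limma-trend (limma 3.58.1), DESeq2 1.42.0, DESeq2 size factors, library size alone, no filter, a mean of at least 1 CPM, a replicate block, only the 6 libraries compared, and each library left out. The older form of edgeR's fit was added after seeing the data.

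The members and lists were chosen with earlier results of these data known. All members, Tfeb, Tfe3 and, as the check of etoposide, Cdkn1a were to be named. For each list and comparison the 2 largest rises and 2 largest falls were to be named as well. They were taken among genes that passed, averaged 1 CPM or more and showed no overlap of replicates. The text gives a part of them. The interaction took 1 each way without the rule on overlap. Genes most like a member were the 3 with the highest Pearson r and a mean of at least 10 CPM. Proteins were not analysed here. The single value of 1 marker gene is not reported here.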

Additional observations from a re-analysis of the deposited data

Results flagged for a closer look

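These results were flagged because the response to etoposide differed between the genotypes, which the interaction tested. On the log2 scale, as the DKO response minus the Null response, the members' values were -1.67 for Tnfaip3, -0.78 for Tnfaip2, 0.73 for Nfkb1, -0.55 for Birc3, -0.51 for Nfkbia, 0.46 for Relb, -0.42 for Nfkbie and -0.28 for Rela. Among the 99 other pathway genes tested, interactions that passed were negative for 37 and positive for 28. Only the genes named for the interaction, at most 1 each way for each list, are given here. Below zero among them were Icam1 (-3.11), Map3k8 (-2.53), Tlr2 (-2.13), Pidd1 (-1.45), Nfkbiz (-1.44), Pdlim2 (-1.17), Myd88 (-0.99) and Tnfsf12 (-0.45). Above zero were Nkrf (1.05), Ccl20 (0.88), Btrc (0.67), Atm (0.49), Tnfrsf12a (0.39), Map3k3 (0.38) and Tnip1 (0.33). Groups of 3 libraries were not screened for single outlying samples.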

How the results depend on the processing

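Over all alternatives, 760 member results kept direction and side of the threshold, 17 became weaker, 6 stronger and 17 turned, and of those for named pathway genes 1951 kept both, 28 became weaker and 1 turned. With library size alone, members higher after etoposide numbered 3 in Null MEFs and 2 in DKO MEFs, against 1 in each, and members higher in untreated DKO MEFs 3, against 5. With a mean of at least 1 CPM, 2 members were higher in Null MEFs. Library size alone turned Nfkb2 (0.041), Tnfaip3 (0.14) and Tnfaip2 (0.082) in Null MEFs, Nfkb2 (0.25), Rela (0.020) and Xiap (0.060) in DKO MEFs, and the interaction of Bcl3 (0.040). The filter of 1 CPM turned Tnfaip3 (0.060) and Tnfaip2 (0.0022) in Null and Nfkb2 (0.018) in DKO MEFs, no filter turned Rela in Null MEFs (-0.0051), and for Tnfaip3 there DESeq2 gave 0.018 and its size factors 0.018. With each library left out, values ranged from -0.0061 to 0.043 for Rela and -0.066 to 0.0022 for Tnfaip3 in Null MEFs, from -0.076 to 0.024 for Birc3 and -0.055 to 0.033 for Tfe3 between treated genotypes, and from -0.13 to 0.0070 for the interaction of Bcl3. Left-out libraries kept members called at 7 in Null and 9 in DKO MEFs, 9 to 10 untreated, 7 to 8 after etoposide and 8 to 9 for the interaction. The replicate numbers share no stated origin. Correlations of same-numbered libraries ran from -0.032 to 0.043, and those of other-numbered libraries from -0.047 to 0.048. Of 12 libraries, 7 were closest to their own number. A replicate block gave 7, 9, 10, 7 and 8 members called, against 7, 9, 10, 8 and 8 without the block. The older form of edgeR's fit, chosen after seeing the data, turned no member. For all these changes, the cause was not tested.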
